A study of Homo sapiens with 6 samples.

Results

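The ERK feedback genes described here are 10 listed genes: the dual-specificity phosphatases DUSP1, DUSP4, DUSP5 and DUSP6, the Sprouty genes SPRY1, SPRY2 and SPRY4, the Sprouty-related gene SPRED1, and the ETS transcription factors ETV4 and ETV5. They were chosen by name, as 10 of the 26967 named genes in the deposited table, and each gene's value is the sum over all of its RefSeq transcripts. All 10 passed the filter of a mean of at least 10 normalized counts and were among the 15173 genes tested. RNA-seq was run on UWB1.289, a human cell line established from an ovarian carcinoma, which has no functional BRCA1. Every library came from cells infected with a lentiviral hairpin in the presence of polybrene and then selected in puromycin. In 3 libraries the hairpin was a control (shCTRL) and in 3 it targeted HBO1 (shHBO1), the histone acetyltransferase encoded by KAT7. The labels do not say how many hairpins or clones were used, or whether the numbered replicates were separate cultures, so p-values measure only how far these libraries scatter, and that scatter may be technical.

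ERK is the last kinase of the RAS, RAF and MEK cascade that carries growth factor signals to the nucleus. Active ERK switches on genes whose products then restrain it, and the messenger levels of these genes are widely used as a readout of pathway output. DUSP proteins remove phosphate from ERK and related kinases, Sprouty and SPRED proteins block the route from receptors to RAS and RAF, and ETV4 and ETV5 are transcription factors whose genes are held down by the repressor CIC until ERK relieves it.

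KAT7 was at 23.9% of its control mean in shHBO1, with 3616, 3952 and 3554 normalized counts in shCTRL 1, 2 and 3 and 1008, 872 and 784 in shHBO1 1, 2 and 3 (limma adjusted p = 0.00123; exact two-sided permutation p = 0.1, the smallest that 3 against 3 allows). The recovered reads numbered 35940400 to 39908703 per library, and each member had between 59 and 4350 reads in every library. The epithelial and Mullerian markers KRT8, KRT18, KRT7, EPCAM and PAX8 were abundant, with means of 9966 to 122750 normalized counts, whereas WT1 had a mean of 13.7 and ESR1 was at 0. Summed leukocyte markers (10 genes, 666 to 771, most of it CD68 and ITGAM, with CD3D at 0) and stromal and endothelial markers (10 genes, 1041 to 1647, most of it CDH5 and COL1A2, with PDGFRA and DCN at 0) were low beside those abundant markers in all 6 libraries. Single genes among them were not low beside the members, since CDH5 averaged 887 and CD68 511 normalized counts, and DUSP6 829. Both number 3 libraries lay apart from the other 4 on the first principal component, which held 44.4% of the variance.

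The 10 genes covered a wide range of expression, compared here per kilobase of the matched GENCODE transcript of each gene's most abundant RefSeq entry. In shCTRL the order of levels was ETV4 (1366 ± 554 normalized counts per kilobase), DUSP5 (1171 ± 68.5), DUSP1 (676 ± 406), ETV5 (590 ± 65.8), SPRY4 (299 ± 53.5), SPRY2 (203 ± 2.41), DUSP6 (202 ± 28.3), SPRED1 (111 ± 7.43), DUSP4 (47.2 ± 12.1) and SPRY1 (37.8 ± 12.2; SD, n = 3 each). ETV4 and DUSP5, DUSP1 and ETV5, SPRY2 and DUSP6, and DUSP4 and SPRY1 were neighbours whose difference was within the larger of their SDs. In shHBO1 the means ran from 1609 ± 381 for ETV4 to 34.1 ± 8.41 for SPRY1, and ETV5 (686 ± 76.0) stood above DUSP1 (439 ± 222). These lengths ignore the other transcripts of each gene, so levels per kilobase are approximate.

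The first question was whether the feedback genes differed as a group, or singly, after HBO1 knockdown. They did not move in 1 direction: DUSP1, DUSP5, DUSP6 and SPRY1 had lower means in shHBO1, and SPRY2, SPRY4, SPRED1, ETV4, ETV5 and, marginally, DUSP4 had higher ones. In limma without a block 0 of 10 passed an adjusted p of 0.05 (each adjusted p = 1.00), where KAT7, 1 of the 15173 tested genes (0.00659%), did. At an unadjusted p under 0.05 the count was also 0 of 10, against 3.55% of all tested genes. Without a block edgeR and DESeq2 each called 0 of 10, where 1 and 19 of all 15173 genes passed. Log2 fold changes, shHBO1 minus shCTRL on the scale of log2(normalized count + 1), ran from −0.52 for DUSP1 to 0.28 for ETV4. Their median was 0.068, with 6 above 0 and 4 below, beside a median of 0.00013 over all tested genes.

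**Figure D1:**
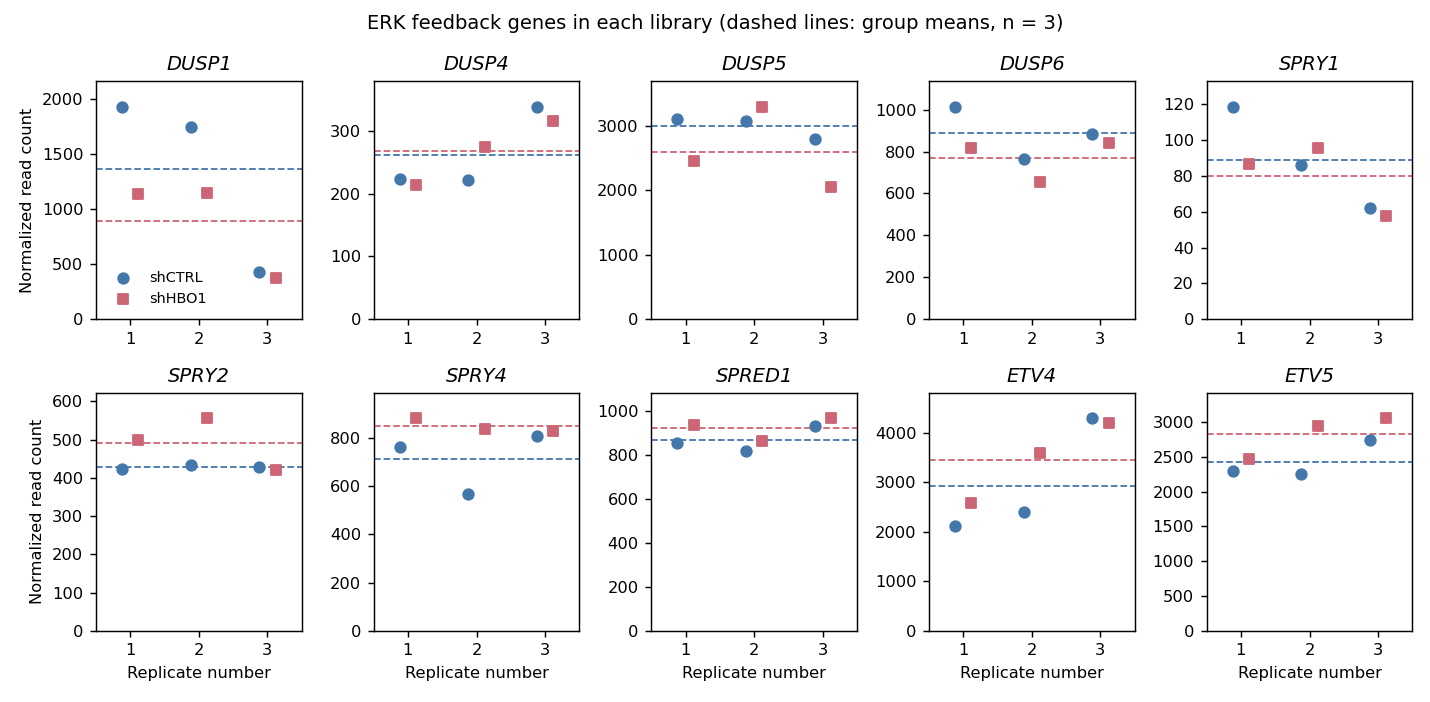
Normalized read counts (vertical axes, linear from 0) of the 10 ERK feedback genes in the libraries numbered 1 to 3 (horizontal axes), with circles for shCTRL, squares for shHBO1 and dashed lines for group means. DUSP1 was lowest in both number 3 libraries (425 and 371) and ETV4 highest there (4294 and 4198), while SPRY4 was the gene whose shHBO1 values all exceeded its shCTRL values.

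With the replicate number as a block, 0 of 10 passed in limma (0.125% of all tested genes passed). In blocked edgeR 0 of 10 passed (19 of all 15173 genes did), whereas blocked DESeq2 called DUSP1 (0.975% of all). At an unadjusted p under 0.05 the blocked limma fit had 5 of the 10, against 11.3% of all tested genes: DUSP1 and DUSP6, with lower values in shHBO1, and SPRY4, ETV4 and ETV5, with higher ones. The block left each estimate where it was and narrowed its interval, most for DUSP1, from −2.01 to 0.97 without the block and −0.77 to −0.26 with it. It assumes that libraries of the same number belong together, which no label states. Leaving out both number 3 libraries, a setting chosen after seeing the data, limma called 0 of 10 without the block (1 of 15173 genes). With the block it called the same 5, where 14.2% of all genes passed on 1 residual degree of freedom.

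**Figure D2:**
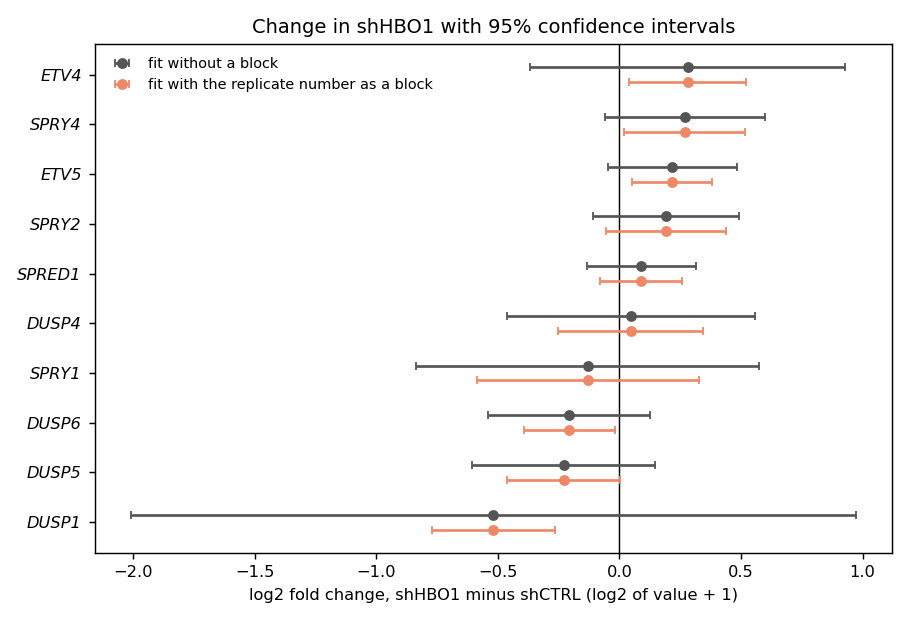
Log2 fold change of each ERK feedback gene, shHBO1 minus shCTRL (horizontal axis, with log2 of the normalized count + 1), where points are limma estimates and bars are 95% confidence intervals, grey without a block and orange with the replicate number as a block. All 10 grey intervals include 0, and the orange intervals of DUSP1, DUSP6, SPRY4, ETV4 and ETV5 do not.

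DUSP1 is an immediate-early phosphatase of the nucleus that acts on p38 and JNK as well as ERK. Its values were 1931, 1742 and 425 normalized counts in shCTRL 1, 2 and 3, and 1141, 1150 and 371 in shHBO1 1, 2 and 3. Both number 3 libraries were far below the rest, and the groups overlapped through shCTRL 3, which lay below shHBO1 1 and 2. shHBO1 was below shCTRL within each number, at 59.1%, 66.0% and 87.2% of its control. Over all tested genes 17.1% were lower in shHBO1 in each of the 3 numbered pairs. Here and below, a pair is 2 libraries that share a replicate number, and no label ties them further. The group means were 1366 ± 820 and 887 ± 447 (SD, n = 3 each), a log2 fold change of −0.52 (SE 0.64; blocked limma SE 0.11, adjusted p = 0.167; blocked DESeq2 log2 fold change −0.53, adjusted p = 0.00437). Without the number 3 libraries the log2 fold change was −0.68, with limma adjusted p = 0.0995 without the block and 4.82e-06 with it. Without shHBO1 3 alone it was 0.024, and without shCTRL 3 alone −1.22, so the unblocked value turned on which number 3 library was present.

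The immediate-early transcription factors FOS and EGR1, which are no members, showed the same layout on a larger scale. Both number 3 libraries were below the other 4 in 19.4% of all tested genes. FOS had 3650, 3064 and 131 normalized counts in shCTRL and 1784, 1454 and 82.0 in shHBO1, and EGR1 had 3892, 3867 and 314 in shCTRL and 1300, 2039 and 165 in shHBO1. Both passed with the block (limma adjusted p = 0.0284 and 0.0301). Neither passed without shCTRL 2 (0.340 and 0.192), without shHBO1 2 (0.286 and 0.221) or with the most abundant transcript of each gene (0.538 for both). In each of these blocked fits 1 gene in all passed. With the most abundant transcript their log2 fold changes, −0.93 and −1.14, were the same as with summed transcripts. Both were called by blocked edgeR (adjusted p = 0.0127 and 0.0257) and blocked DESeq2 (adjusted p = 2.17e-15 and 5.54e-16). The bases just before the start sites of DUSP1, EGR1 and FOS are shown because these genes were low together in the number 3 libraries, and those of SPRY4 because its values hardly differed between numbers 1 and 3. They are the 250 bases before the start from RefSeq's GRCh38.p14 annotation, 5′ to 3′ on the gene's strand, and capitals mark matches on either strand to a cyclic AMP response element (TGACGTCA) or its shorter core (TGACG, which the full element contains), an AP-1 site (TGANTCA), the CArG box bound by serum response factor, an ETS site (CCGGAA) or a CIC site (TGAATGAA or TGAATGGA).
DUSP1 promoter, chr5:172771196-172771445, minus strand: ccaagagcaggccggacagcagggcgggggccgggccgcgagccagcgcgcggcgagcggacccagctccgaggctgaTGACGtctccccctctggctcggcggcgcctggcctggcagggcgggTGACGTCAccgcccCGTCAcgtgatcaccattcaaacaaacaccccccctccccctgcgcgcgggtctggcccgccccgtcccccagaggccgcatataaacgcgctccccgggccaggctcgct
EGR1 promoter, chr5:138465229-138465478, plus strand: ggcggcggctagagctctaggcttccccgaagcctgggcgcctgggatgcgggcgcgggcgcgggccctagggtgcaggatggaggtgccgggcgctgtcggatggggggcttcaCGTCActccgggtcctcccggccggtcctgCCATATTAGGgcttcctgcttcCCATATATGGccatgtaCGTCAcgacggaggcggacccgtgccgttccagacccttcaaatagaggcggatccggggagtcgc
FOS promoter, chr14:75278578-75278827, plus strand: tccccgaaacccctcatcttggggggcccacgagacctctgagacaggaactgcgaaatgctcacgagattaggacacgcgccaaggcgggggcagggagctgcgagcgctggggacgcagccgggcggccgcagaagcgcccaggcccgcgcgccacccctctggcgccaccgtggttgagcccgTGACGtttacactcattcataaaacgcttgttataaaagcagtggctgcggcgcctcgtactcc
SPRY4 promoter, chr5:142324248-142324497, minus strand: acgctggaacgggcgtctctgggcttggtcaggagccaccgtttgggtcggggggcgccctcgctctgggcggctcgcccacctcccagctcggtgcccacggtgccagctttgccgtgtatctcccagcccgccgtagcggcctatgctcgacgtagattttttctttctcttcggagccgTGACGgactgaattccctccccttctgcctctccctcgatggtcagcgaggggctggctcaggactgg

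The full cyclic AMP response element lay 125 to 118 bases before the DUSP1 start, and 1.65% of the 35116 RefSeq promoter windows of this length hold one. EGR1 had CArG boxes at 105 to 96 and 83 to 74 bases before its start, a motif in 1.16% of windows. The FOS and SPRY4 windows each had 1 match, to the shorter core TGACG, which 21.2% of windows hold. Within these windows the motifs therefore did not separate FOS from SPRY4. Bases farther from the start were not searched, so the lack of other matches does not extend to them. Sequences were found for 6 of the 10 members (9 windows), and among the others SPRY1 and SPRY2 each had 1 window with CCGGAA (14.5% of windows). That SPRY2 window also held the shorter core TGACG, 190 to 186 bases before its start. AP-1 sites (6.57% of windows), CIC sites (2.19%) and CArG boxes had 0 matches in the members' windows. These matches describe letters and are not evidence of binding.

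DUSP6 is a cytoplasmic phosphatase selective for ERK, and its messenger is a common readout of the pathway. It had 1015, 766 and 884 normalized counts in shCTRL 1, 2 and 3, and 818, 653 and 839 in shHBO1. shHBO1 was the lower library in each pair, at 80.6%, 85.2% and 94.9% of its control, while the groups as a whole overlapped. The means of 888 ± 124 and 770 ± 102 gave a log2 fold change of −0.21 (SE 0.14, 95% confidence interval −0.54 to 0.13; blocked limma adjusted p = 0.406). A fall to below 0.688 of control or a rise above 1.09-fold lay outside this interval. Its main transcript, NM_001946, held 96.3% of its counts.

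DUSP5, a nuclear ERK phosphatase, was the most abundant phosphatase per kilobase. Its values were 3109, 3079 and 2792 in shCTRL, and they spread more widely in shHBO1, at 2457, 3301 and 2045. The shHBO1 libraries numbered 1 and 3 were below all controls and number 2 was above them. The log2 fold change was −0.23 (SE 0.16), and it was −0.42 without shHBO1 2 and −0.070 without shHBO1 3. DUSP5P1, a transcribed pseudogene copy, had a mean of 31.9, and reads that fit both copies could not be told apart.

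DUSP4, an inducible nuclear phosphatase of MAP kinases, was low. It had 223, 222 and 339 normalized counts in shCTRL and 214, 274 and 316 in shHBO1, with nearly equal means of 261 ± 67.0 and 268 ± 51.1. Its log2 fold change of 0.046 (95% confidence interval −0.46 to 0.56) changed sign when shCTRL 1, shCTRL 2 or shHBO1 3 was left out.

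Among the Sprouty genes, which are induced by receptor tyrosine kinases and restrain them, SPRY4 was the one member of the 10 whose groups did not overlap. It had 761, 568 and 808 normalized counts in shCTRL 1, 2 and 3, and 881, 836 and 828 in shHBO1. All shHBO1 values exceeded all shCTRL values in 4.49% of tested genes, and all were below in 4.44%. The margin was narrow, since the lowest shHBO1 value (828) was close to the highest shCTRL value (808), and shCTRL 2 alone was far below the others. SPRY4-IT1, a non-coding RNA annotated within SPRY4, had a mean of 2.43. Means of 712 ± 127 and 848 ± 28.7 gave a log2 fold change of 0.27 (SE 0.14, 95% confidence interval −0.061 to 0.60, limma adjusted p = 1.00), which was 0.11 without shCTRL 2. The higher values were in its main transcript, NM_001127496, at 491 ± 39.1 in shCTRL (527, 450 and 497) and 671 ± 46.5 in shHBO1 (688, 618 and 706). The second transcript, NM_030964, averaged 187 ± 93.6 and 119 ± 52.9. When each gene was represented by its most abundant transcript, SPRY4 had a log2 fold change of 0.45 with an unadjusted p of 0.00857 and a limma adjusted p = 1.00.

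SPRY2, which acts on receptor signalling upstream of RAS and RAF, was almost constant in shCTRL, at 423, 433 and 428 normalized counts. In shHBO1 numbers 1 and 2 were higher (498 and 556) and number 3 was not (421). Its log2 fold change was 0.19 (SE 0.13; the 95% interval ran from −0.11 to 0.49), and 0.30 without the number 3 libraries. SPRY1 was the least expressed member, with 119, 86.2 and 61.9 in shCTRL and 86.9, 95.7 and 57.9 in shHBO1. At 59 to 117 reads its interval was wider than that of any member but DUSP1, from −0.84 to 0.57 around a log2 fold change of −0.13, and the sign turned without shCTRL 1 or shHBO1 3.

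SPRED1, which brings the RAS inhibitor neurofibromin to the membrane, was the steadiest of the 10. Its highest library exceeded its lowest by 1.19-fold, with 853, 816 and 929 normalized counts in shCTRL and 935, 861 and 967 in shHBO1. The shHBO1 library was higher in each pair, at 110%, 106% and 104% of its control, a layout seen in 15.3% of tested genes and, among the members, also in SPRY4 and ETV5. Its log2 fold change of 0.090 (95% confidence interval −0.13 to 0.31) had the narrowest interval of the 10, so a rise above 1.24-fold lay outside it.

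ETV5 and ETV4, paired ETS factors of the PEA3 group, had higher means in shHBO1. ETV5 had 2293, 2249 and 2738 normalized counts in shCTRL 1, 2 and 3, and 2466, 2943 and 3054 in shHBO1. shHBO1 was the higher library in each pair, at 108%, 131% and 112% of its control, and the groups overlapped through shCTRL 3. Its log2 fold change was 0.22 (SE 0.11; the 95% interval ran from −0.048 to 0.48; blocked limma adjusted p = 0.316).

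ETV4 had 2107, 2395 and 4294 normalized counts in shCTRL and 2577, 3589 and 4198 in shHBO1. The shHBO1 library was at 122% and 150% of its control in numbers 1 and 2, and at 97.7% in number 3, where both libraries were highest. The means of 2932 ± 1188 and 3455 ± 819 gave a log2 fold change of 0.28 (SE 0.28; blocked limma adjusted p = 0.380), which was 0.44 without the number 3 libraries (limma adjusted p = 0.271) and ranged from 0.079 (without shCTRL 1) to 0.59 (without shCTRL 3) with 1 library left out. ETV4 overlaps DHX8 in the annotation, which was steady at 3111 to 3399 normalized counts, and reads from the shared stretch could not be told apart.

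The 5 deposited ETV4 transcripts were divided differently in 1 library. NM_001261438 held 43.1%, 43.2% and 57.1% of ETV4 counts in shCTRL and 64.2% and 54.9% in shHBO1 2 and 3, but 21.3% in shHBO1 1. There NM_001986 held 59.2%, against 21.2% to 35.2% in the other 5 libraries. SPRY1 also had a different main transcript in that library, where NM_005841 held 61.3% of its counts and 0 to 18.1% elsewhere. The SPRY1 counts of shCTRL 1 were also divided differently, with 39.3% in NM_199327, which held 0 to 6.78% elsewhere. The summed gene values did not stand apart in shHBO1 1, and the sources used here do not give how reads were assigned among transcripts of a gene, so these divisions are given without a test.

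**Figure D3:**
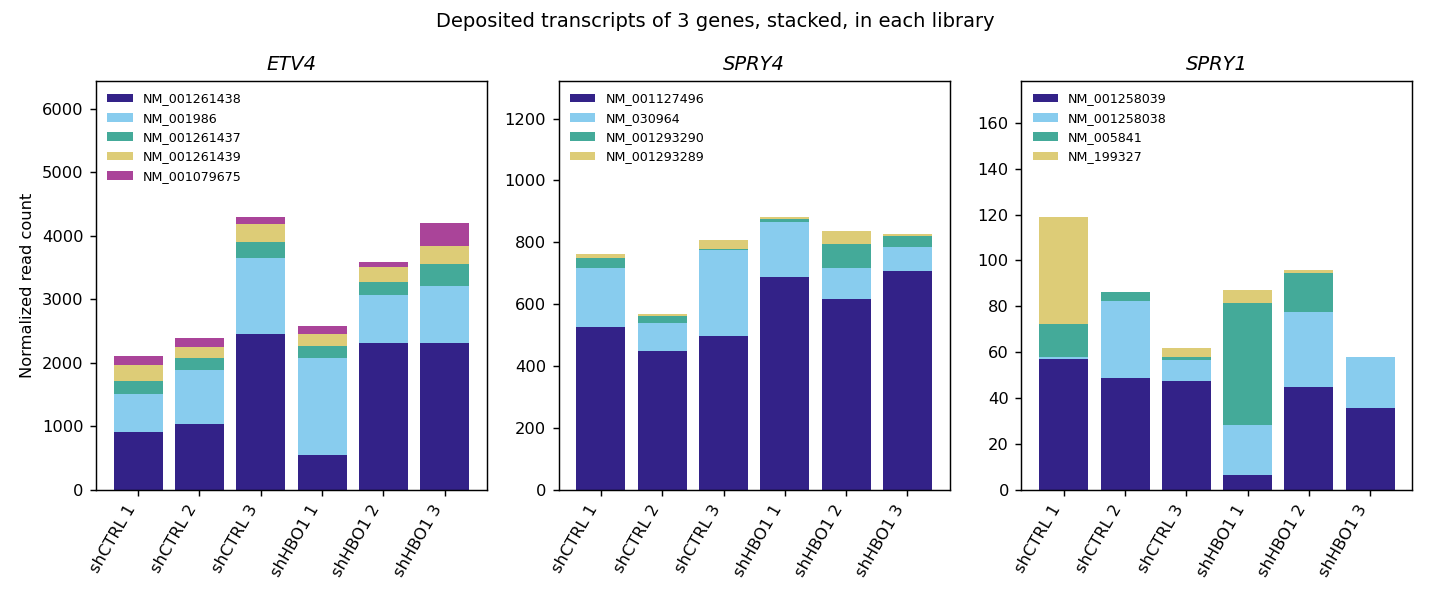
Normalized read counts (vertical axes) of the deposited RefSeq transcripts of ETV4, SPRY4 and SPRY1, stacked for each of the 6 libraries (horizontal axes). In shHBO1 1 the share of NM_001986 in ETV4 was 59.2% and that of NM_005841 in SPRY1 was 61.3%, while the total bar heights did not stand apart.

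The members were then compared across replicate numbers, with group as a term in the limma fit. DUSP1 (adjusted p = 0.000551) and ETV4 (adjusted p = 0.0158) passed the F-test for any difference among the numbers, 2 of 10 beside 9.68% of all tested genes. They lay on opposite sides. DUSP1 was lower in number 3 than in number 1 by 1.90 on the log2 scale (blocked SE 0.13), to 22.0% within shCTRL and 32.5% within shHBO1. ETV4 was higher in number 3 by 0.87 (SE 0.13), at 204% of number 1 within shCTRL and 163% within shHBO1. The DESeq2 test of the numbers called 3 of the 10, adding DUSP5 (DESeq2 adjusted p = 0.0369), where 1970 genes passed in all. When each gene was represented by its most abundant transcript in limma, 0 of 10 passed (DUSP1 adjusted p = 0.0576, ETV4 0.218). In that setting 13 of all 14945 tested genes passed, and the difference of DUSP1, which has 1 transcript, stayed at −1.90. With 1 library left out, 2 to 7 of the 10 passed. There were 4 without shCTRL 3 and 7 without shHBO1 3, where the count over all 15173 genes also rose, from 1469 to 3067 and 5880. Both number 3 libraries lay above the other 4 in 21.6% of tested genes and below them in 19.4%. Among the members ETV4 and DUSP4 were above, and DUSP1 and SPRY1 below.

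DUSP4 had a log2 difference of 0.58 between numbers 3 and 1 (adjusted p = 0.0918), and SPRY1 of −0.75 (adjusted p = 0.133). DUSP6 differed by −0.081 (95% confidence interval −0.31 to 0.15), SPRY4 by −0.0019 (−0.31 to 0.30) and SPRED1 by 0.085 (−0.12 to 0.29). For DUSP6 the lowest libraries were those numbered 2 (F-test adjusted p = 0.0872). The same log2 difference between numbers 3 and 1 was −4.61 for FOS and −3.30 for EGR1. Among other measures that varied with the number, 8 structural and nuclear RNAs used to watch RNA quality, led by NEAT1 and MALAT1, summed to 29997, 26250 and 17929 in shCTRL 1, 2 and 3 and 31363, 26365 and 21935 in shHBO1. Other genes of that list did not fall with the sum: RN7SK had 152, 322 and 296 in shCTRL, RMRP 161, 194 and 224, and RPPH1 92.4, 233 and 219, and the median difference between numbers 3 and 1 over the list was 0.11. The 12 epithelial and Mullerian markers summed to 376865, 358359 and 328477 in shCTRL and 351742, 363650 and 308310 in shHBO1. Their part in the differences between numbers was not tested.

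**Figure D4:**
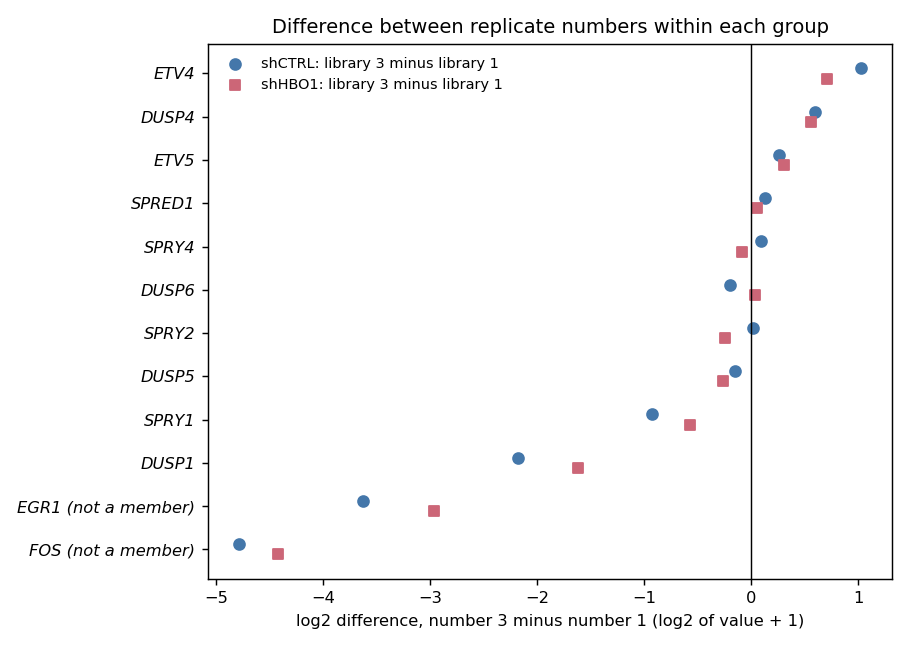
Log2 difference between library 3 and library 1 (horizontal axis, with log2 of the normalized count + 1) within shCTRL (circles) and within shHBO1 (squares), for the 10 ERK feedback genes and for FOS and EGR1. DUSP1 lay far below 0 in both groups (−2.18 and −1.62) in the direction of FOS and EGR1, and ETV4 lay above 0 in both (1.03 and 0.70).

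Other genes of the pathway were taken from lists of names. Of 12 other DUSP, Sprouty, SPRED and ETV genes, 0 passed for shHBO1 against shCTRL in limma with or without the block, and their median log2 fold change was 0.056. ETV1, the remaining PEA3 factor, had 313, 269 and 166 normalized counts in shCTRL and 388, 402 and 337 in shHBO1. Its groups did not overlap, and the log2 fold change was 0.64 (SE 0.23, unadjusted p = 0.0272, adjusted p = 1.00). DUSP7, a cytoplasmic relative of DUSP6, had 0.37 (SE 0.23) and SPRED3 0.17 (SE 0.15). Across this list all shHBO1 values lay above all shCTRL values in 1 of 12 and below in 1. The shares over all tested genes were 4.49% and 4.44%. In this family list 7 of 12 differed between replicate numbers, against 9.68% of all tested genes, 4 higher in number 3 than in number 1 and 3 lower. These list counts rest on summed transcripts, since with the most abundant transcript of each gene 13 genes in all passed.

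Among 27 tested transcriptional targets of ERK signalling outside the 10 (30 listed), 0 passed without the block, and EGR1 and FOS passed with it, both lower in shHBO1, calls that were lost without either number 2 library as given above. The median log2 fold change was 0.0096, with 14 above 0 and 13 below. The pluripotency and epithelial factor KLF4 had 0.27 (SE 0.095), the urokinase receptor PLAUR 0.21 (SE 0.086) and the stress factor ATF3 −0.34 (SE 0.14), each with limma adjusted p = 1.00. KLF4 and PLAUR were the 2 of the 27 whose shHBO1 values all exceeded their shCTRL values, against 4.49% of all tested genes. Wholly lower values were seen in 0. Differences between numbers passed in 12 of the 27, against 9.68% of all tested genes, 4 higher in number 3 and 8 lower.

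A further list held 28 genes of the cascade from RAS to ERK, its adaptors and scaffolds, and kinases and transcription factors downstream of ERK. Of these, 0 passed with or without the block, and the median log2 fold change was 0.0051. Single values ran from −0.23 for the adaptor GAB1 to 0.49 for the scaffold KSR2. All shHBO1 values exceeded all shCTRL values in 4 of the 28 (4.49% of all tested genes) and were below them in 0. KSR2 had the smallest p of this list, with 166, 146 and 197 normalized counts in shCTRL and 235, 244 and 232 in shHBO1. Its log2 fold change had an SE of 0.16 (unadjusted p = 0.0151, adjusted p = 1.00). The MEK and ERK adaptor LAMTOR3 had 0.12 (SE 0.085) and the ERK1 gene MAPK3 −0.21 (SE 0.16). Differences between numbers passed in 2 of the 28, against 9.68% of all tested genes: RRAS and MAPK3, both lower in number 3.

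Of 19 tested inhibitors of the pathway and repressors of its targets (20 listed), 0 passed and the median was 0.033. ERRFI1, a feedback inhibitor of the EGF receptor, had 4118, 3900 and 3602 normalized counts in shCTRL and 3328, 3335 and 2965 in shHBO1, with no overlap and a log2 fold change of −0.27 (SE 0.084, unadjusted p = 0.0126, adjusted p = 1.00). IL17RD, also named SEF, a feedback inhibitor of FGF signalling, had −0.51 (SE 0.19), also without overlap. The RAS GTPase activator RASAL2 had 0.17 (SE 0.071), with all shHBO1 values above all shCTRL values. In this list 2 of the 19 lay wholly above and 2 wholly below, against 4.49% and 4.44% of all tested genes. Differences between numbers passed in 3 of the 19, against 9.68% of all tested genes.

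**Figure D5:**
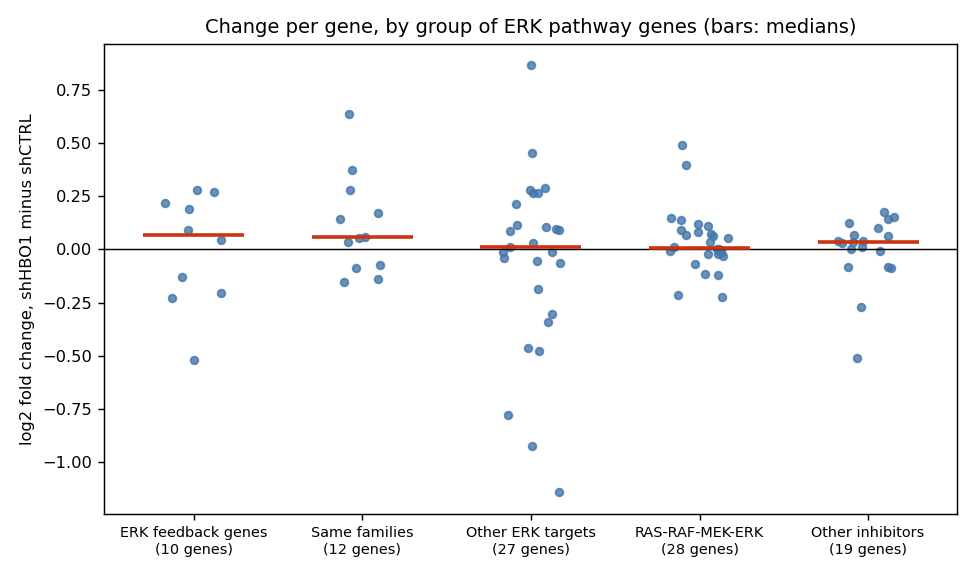
Log2 fold change, shHBO1 minus shCTRL (vertical axis), of each tested gene (points, spread sideways for legibility) in the 10 ERK feedback genes and 4 other lists of ERK pathway genes, with red bars at the medians. The medians lay between 0.0051 and 0.068, and the lowest points were EGR1 and FOS among the other ERK targets.

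The members were also compared by the shape of their values over the 6 libraries, as the root mean square difference of log2 values after centring each gene on its own mean. The nearest pair was SPRED1 and ETV5 (0.13 log2 units), both of which varied little, and the farthest was DUSP1 and ETV4 (1.30). DUSP4 was the member nearest to ETV4 (0.18), both being higher in number 3. SPRY1 was nearest to DUSP1, but at a distance of 0.61, and DUSP1 was the farthest member from 8 of the other 9. SPRED1 was the member nearest to DUSP6 (0.20), and 2824 of 13220 genes compared, those averaging 50 or more normalized counts, were nearer. The 5 nearest of those were SLC30A4, EVA1B, ZNF30, FAAP20 and RBPMS, at distances of 0.044 to 0.051 where DUSP6 itself varied by 0.19. Genes that vary little lie near each other by this measure whatever their shape. EGR1 and FOS, which varied more than DUSP1, lay 0.84 and 1.25 from it. Of the 13220 genes, 2686 were nearer to DUSP1 than EGR1 was, and 12798 were nearer than FOS.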

How the data were processed

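The authors deposited 1 table of normalized signal, that is read counts per RefSeq transcript scaled by 1 factor per library, for 58215 accessions in 6 libraries. The submitters' processing notes list Bowtie 1.2.1.1, SAMtools, DESeq2 and the build hg19 but give no roles. Each value divided by its library's step gave a whole read for 100% of values at a tolerance of 0.01 read. Names came from RefSeq (GRCh38.p14) for 57191 accessions and GENCODE for 646; 378 had none and were left out. Transcripts were summed per gene, giving 26967 genes, so a read counted for several transcripts would enter more than once. Depth was 35940400 to 39908703 reads per library, and intervals cover the spread between libraries.

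The main test was limma-trend (R 4.3.3, limma 3.58.1), run on log2 values with 1 added to each normalized count. It covered 15173 genes averaging 10 or more, Benjamini-Hochberg adjusted over all of them, with a threshold of 0.05; such fold changes understate those of low genes. Recovered reads were tested with edgeR 4.0.16 and DESeq2 1.42.0. The other settings were pseudocounts of 0.5 and 5, no filter, a mean of at least 50, TMM and quantile scaling, the most abundant transcript, and each library left out. Scripts were tested on simulated data. Deviations from group means correlated across genes at 0.32, 0.19 and 0.48 for same-numbered libraries 1, 2 and 3, all above 0.1. The numbers were therefore taken to pair the libraries. Of the unmatched pairs, shCTRL 2 with shHBO1 1 had 0.21, above the value for number 2, and shCTRL 1 with shHBO1 2 had 0.054. Deviations within a group cancel out, so the shift shared by the number 3 libraries itself raises the correlations among numbers 1 and 2. The check thus shows number 3 standing apart but cannot settle whether numbers 1 and 2 were paired, which the blocked fits assume. No label ties a number to a day or batch. Libraries of a group differed by 12.3 to 67.4 chi-square per degree of freedom, so none repeats another.

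The members and lists were chosen with earlier results of these data known. Named genes were KAT7, the 10 members, the 3 genes of each list with the smallest p without a block, the genes nearest to members, and FOS and EGR1; CD68, ITGAM, CDH5, COL1A2, NEAT1, MALAT1, RRAS, GAB1, RN7SK, RMRP, RPPH1, DHX8 and DUSP5P1 were named after their values were seen.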

Additional observations from a re-analysis of the deposited data

How the results depend on the processing

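KAT7 passed in all 20 alternatives, with log2 fold changes from −2.16 to −1.89. Of the 20 alternatives for shHBO1 against shCTRL, 18 called 0 of the 10 ERK feedback genes. The exceptions were DESeq2 with the replicate block, which called 1 (DUSP1), and limma with the replicate block and the number 3 libraries left out, which called 5. Outside these 20, blocked limma also called 5 without shCTRL 3 alone and 5 without shHBO1 3 alone. There 2134 and 2144 of 15173 genes passed. Blocked limma without any other single library called 0 of the 10, where 1 to 23 genes passed in all. Over all genes 1 passed without the block. With the replicate block 19 passed in limma and 19 in edgeR, DESeq2 called 19 without and 148 with the block, and 2160 passed with the block and the number 3 libraries left out, on 1 residual degree of freedom. For these and the values below the cause was not tested. The blocked edgeR and DESeq2 fits and the settings without the number 3 libraries were chosen after seeing the data. So were the blocked fits with a library left out, including their tests of replicate numbers.

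Leaving out 1 library at a time, the log2 fold change of DUSP1 ranged from −1.22 to 0.024, of DUSP4 from −0.081 to 0.25 and of SPRY1 from −0.36 to 0.10. With the most abundant transcript of each gene SPRY1 had −1.15, against −0.13 with summed transcripts. The other 7 members kept their sign in all 20 alternatives, but leaving out 1 library moved DUSP5 from −0.42 to −0.070, DUSP6 from −0.31 (without shCTRL 2) to −0.092 (without shHBO1 2), SPRY2 from 0.098 (without shHBO1 2) to 0.30 (without shHBO1 3) and SPRED1 from 0.047 (without shCTRL 2) to 0.14 (without shCTRL 3). For replicate numbers, leaving out 1 library gave 473 (without shCTRL 2) to 5880 (without shHBO1 3) genes and 2 to 7 members; it was 553 genes without shHBO1 2 and 3067 without shCTRL 3. With the most abundant transcript of each gene 13 genes and 0 members passed. DUSP1 has a single transcript, so its difference of −1.90 was the same there and its adjusted p became 0.0576. In that setting SPRY1 had 1.01. With libraries left out, the difference between numbers 3 and 1 ranged from −0.18 to 0.016 for DUSP6, from −0.27 to 0.049 for SPRY2 and from −0.18 to 0.17 for SPRY4. SPRY1 had the fewest reads of the 10, at 59 to 117 per library.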
